A study of Rattus norvegicus with 9 samples.

Results

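The endothelin, renin-angiotensin, adrenomedullin and cannabinoid systems were followed through 10 genes for their ligands, processing enzymes and receptors. The samples are given as hepatic macrophages of rats with a narrowed portal vein and of sham-operated rats. The members are the listed genes Edn1, Ednra, Ednrb, Ece1, Ace, Agtr1a, Adm, Calcrl, Cnr1 and Cnr2, each taken through the probesets that carry its symbol alone in the platform annotation. Of these 10 genes 8 had such a probeset, out of 18166 genes so annotated on the array, and the endothelin receptors Ednra and Ednrb are not analysed here. Cnr2 had 2 probesets and the other measured members 1 each, and the probeset with the highest mean stood for the gene. The study compared 3 groups of 3 male Sprague-Dawley rats, which were sham-operated rats without a ligature, rats with partial portal vein ligation (PPVL) of 3 days' standing and rats with one of 10 days' standing. PPVL ties the portal vein against a blunt needle that is then withdrawn, which leaves a stenosis of set width and raises portal pressure. Each array held RNA of the cells given as hepatic macrophages of a separate rat, and markers of other cells in them are described below. The labels give neither an age nor a day of collection for the sham rats, so time since surgery and ligation cannot be told apart.

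Endothelin-1, encoded by Edn1, is cut from its precursor by the endothelin converting enzyme, encoded by Ece1. It acts on vessels through the receptors of Ednra and Ednrb. Angiotensin-converting enzyme, encoded by Ace, makes angiotensin II, which constricts vessels through the receptor encoded by Agtr1a. Adrenomedullin, encoded by Adm, is a dilator that acts on the receptor of Calcrl when it is joined to a partner protein of the Ramp family. The cannabinoid receptors are encoded by Cnr1, known mainly from neurons, and Cnr2, known mainly from immune cells, B cells and macrophages among them. In the cirrhotic liver these systems are known for their part in vascular tone, and endocannabinoids made by macrophages have been linked to dilatation of splanchnic vessels.

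Signals are log2 values made by robust multi-array average (RMA), a summary over the probes of a probeset after background correction and quantile normalization, so a difference of 1 is a 2-fold change. Array medians lay between 5.21 and 5.26, and any pair of arrays correlated at 0.987 to 0.993 across probesets. A gene was tested where its mean over the 9 arrays reached 4.16, the 30th percentile of all probesets, which left 14014 genes and 6 of the 8 measured members. Agtr1a and Cnr1 lay below it and were not tested. Differences are given ± standard error with n = 3 rats a group, and a gene was called at an adjusted p under 0.05, from limma's moderated test and the Benjamini-Hochberg method applied to all 14014 genes. Before adjustment, limma's p was under 0.05 for 15.5% of all genes at 3 days, 16.2% at 10 days and 11.3% between the days, and counts at that level are to be read against these shares. The group means of the list of 13 macrophage markers were 6.07 to 6.47. C1qa, C1qb, C1qc, Mrc1, Marco and Cd5l had means of 4.49 to 6.21. The brightest of the 13, Cd68 (mean 11.2), Csf1r (10.2) and Adgre1 (8.55), lay well above the filter of 4.16. The Kupffer cell markers Vsig4 (4.26), Timd4 (4.40), Cd163 (4.50) and Clec4f (5.03) lay close to it. Markers of lymphocytes were also well above it, with the group means of their lists at 7.94 to 8.42 for B cells and at 9.33 to 9.74 for T and natural killer cells. Prf1 (11.7), Nkg7 (11.6) and Gzma (11.5) of the latter list were brighter than Cd68, and its other measured genes were dimmer. The signals below are those of a mixed preparation and cannot be assigned to macrophages alone. The mean of 9 hepatocyte markers was 5.58 to 5.76 in sham, 5.73 to 6.09 at 3 days and 5.88 to 5.96 at 10 days. Of the 8 tested, only Ass1 and Hp passed at 3 days, where 2.15% of all genes rose. Alb was higher without passing (0.75, adjusted p = 0.413 with limma), and Ttr (-0.01) and Cps1 (-0.02) were slightly lower. The mean of 5 platelet markers was 6.22 to 6.61, 6.28 to 7.19 and 6.02 to 6.38 in the same order, with none called and 3 at an unadjusted p under 0.05 at 3 days with limma.

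The members with the largest differences were Cnr2, which was higher after ligation, and Calcrl, which was lower. Stretches before their annotated starts are shown because these are the genes on which the comparisons below turn. They are the 250 bases upstream of each start in RefSeq on build GRCr8, and capitals mark matches to TATAAA, the core of the TATA box, on either strand. Cnr2 has 3 annotated starts on the plus strand of chromosome 5, and the deposited values do not say from which of them the transcripts came. Calcrl lies on the minus strand of chromosome 3.
Cnr2, chr5:153408934-153409183, plus strand: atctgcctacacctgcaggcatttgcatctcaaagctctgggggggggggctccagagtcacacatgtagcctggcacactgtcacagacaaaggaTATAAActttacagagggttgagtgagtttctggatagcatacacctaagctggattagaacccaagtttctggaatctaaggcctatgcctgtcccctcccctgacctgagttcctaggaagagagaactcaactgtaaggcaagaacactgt
Cnr2, chr5:153426782-153427031, plus strand: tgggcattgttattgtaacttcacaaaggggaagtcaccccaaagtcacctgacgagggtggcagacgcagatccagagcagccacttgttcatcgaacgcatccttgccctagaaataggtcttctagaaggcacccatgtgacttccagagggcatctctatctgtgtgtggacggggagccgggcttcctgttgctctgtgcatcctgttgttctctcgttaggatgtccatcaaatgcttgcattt
Cnr2, chr5:153431813-153432062, plus strand: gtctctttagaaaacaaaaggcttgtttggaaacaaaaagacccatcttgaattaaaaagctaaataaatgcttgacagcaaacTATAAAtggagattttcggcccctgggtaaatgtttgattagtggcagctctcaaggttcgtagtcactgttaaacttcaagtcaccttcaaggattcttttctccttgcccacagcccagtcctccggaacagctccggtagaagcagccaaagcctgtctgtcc
Calcrl, chr3:89932617-89932866, minus strand: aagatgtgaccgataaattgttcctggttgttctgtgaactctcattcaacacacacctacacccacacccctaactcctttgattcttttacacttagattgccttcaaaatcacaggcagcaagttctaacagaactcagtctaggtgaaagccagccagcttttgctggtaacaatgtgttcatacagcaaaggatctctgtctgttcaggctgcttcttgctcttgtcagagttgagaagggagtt

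Besides TATAAA, the motifs searched on both strands were ACGTG (the core of hypoxia response elements), TGAGTCA (an AP-1 site) and GAGGAAGT (a site of the myeloid and B cell factor PU.1). The RefSeq table held 9 such upstream windows for 7 of the 8 measured members, all but Cnr1. TATAAA occurred in 5 of these 9 windows, those of Edn1, Ace and Agtr1a and the windows of Cnr2 at its most upstream and most downstream start, 154 and 166 bases before the start. The matches of Edn1, Ace and Agtr1a began 110, 42 and 45 bases before the start. A match counted wherever it lay in the window, so the count does not show a working TATA box. TATAAA occurred in 12.9% of all 33469 windows of this length. ACGTG occurred in the window of Edn1 alone of the 9, and in 16.6% of all windows. TGAGTCA (4.05% of all windows) and GAGGAAGT (2.04%) were in none of the 9. These matches describe the letters of the windows and not bound sites.

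**Figure D1:**
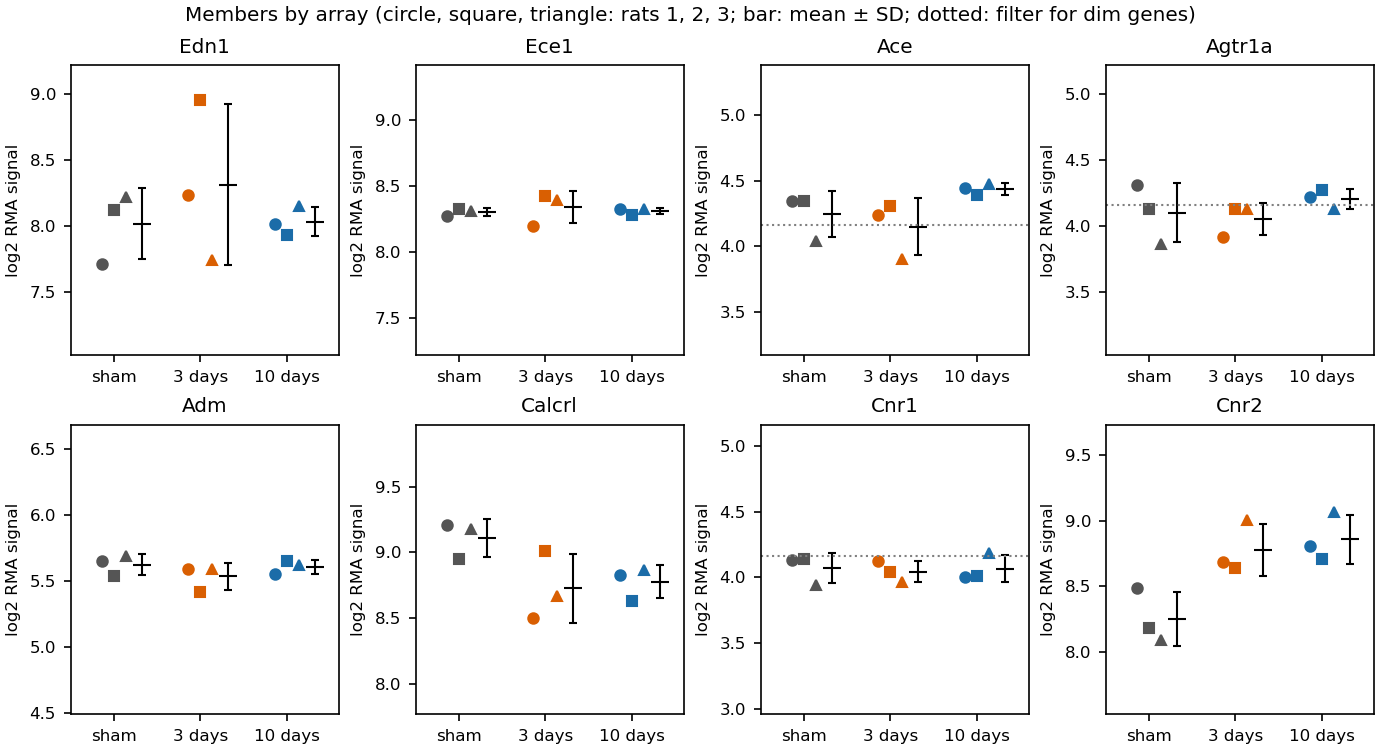
Log2 RMA signal (vertical axes, each spanning 2.2) of the 8 measured members on the 9 arrays, by group, with bars for mean ± SD (n = 3) and a dotted line at the filter of 4.16. All 6 arrays after PPVL lie above the 3 sham arrays for Cnr2, the 10-day arrays lie below sham for Calcrl, and the 3-day arrays of Edn1 are spread from 7.74 to 8.96.

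Among the ligands and their converting enzymes no gene passed the test. The Edn1 signal was 7.71, 8.12 and 8.22 in the sham rats, 8.24, 8.96 and 7.74 in the 3-day rats and 8.02, 7.93 and 8.15 in the 10-day rats. The groups overlapped, and the highest and the second lowest value of all 9 arrays were both in the 3-day group. The difference at 3 days was 0.30 ± 0.26 (adjusted p = 0.659), with a 95% interval of -0.28 to 0.87, and it ran from -0.03 without 3-day rat 2 to 0.58 without 3-day rat 3. At 10 days it was 0.01 ± 0.26 (adjusted p = 0.987), with an interval of -0.56 to 0.59. The SD of Edn1 was 0.61 among the 3-day rats, 0.27 among the sham rats and 0.11 among the 10-day rats; a change of Edn1 within these intervals was not detectable with 3 rats a group. Edn1 is known from endothelial and stellate cells, and the mean of 13 stellate cell and fibroblast markers was 4.92 to 4.99 in sham, 4.996 to 5.016 at 3 days and 4.99 to 5.06 at 10 days, where Ecm1 rose at 3 days. The part of these cells in the Edn1 signal was not tested.

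Ece1, whose enzyme makes mature endothelin-1, differed little between groups. Its signal was 8.27, 8.33 and 8.31 in the sham rats, 8.20, 8.42 and 8.40 in the 3-day rats and 8.33, 8.28 and 8.33 in the 10-day rats. The differences of 0.04 ± 0.07 at 3 days (adjusted p = 0.865) and 0.01 ± 0.07 at 10 days (adjusted p = 0.967) had intervals of -0.12 to 0.19 and -0.15 to 0.16. The same deposited value of Ece1 occurred on 3 arrays. Such repeats on 3 or more arrays were found for 3900 of the 14014 genes tested (27.8%), and whether they bear on the standard errors was not tested.

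Adm, the gene of the dilator adrenomedullin, had signals of 5.65, 5.54 and 5.69 in the sham rats, 5.59, 5.42 and 5.59 in the 3-day rats and 5.55, 5.65 and 5.62 in the 10-day rats. The groups overlapped. The differences were -0.09 ± 0.07 at 3 days (adjusted p = 0.621, interval -0.25 to 0.07) and -0.02 ± 0.07 at 10 days (adjusted p = 0.932, interval -0.18 to 0.14).

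Ace, the gene of the angiotensin-converting enzyme, was dim, with a mean of 4.28. Its signal was 4.34, 4.35 and 4.04 in the sham rats, 4.24, 4.31 and 3.90 in the 3-day rats and 4.45, 4.39 and 4.47 in the 10-day rats. All 10-day rats lay above every rat of the other groups, while sham and 3-day rats overlapped. The difference was 0.29 ± 0.12 between 10 and 3 days (unadjusted p = 0.0337, adjusted p = 0.404 with limma, interval 0.03 to 0.55). Against sham it was 0.19 ± 0.12 at 10 days (adjusted p = 0.460) and -0.10 ± 0.12 at 3 days (adjusted p = 0.769). Without 3-day rat 3 the difference between the days was 0.16 (unadjusted p = 0.134 with limma) and that at 3 days 0.03, and without sham rat 3 the difference at 10 days was 0.09. Ace is known from endothelial cells, whose markers are given below beside Calcrl.

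Of the receptors, Cnr2, the cannabinoid receptor of immune cells, had the largest differences from sham of the members tested. Its signal was 8.49, 8.18 and 8.09 in the sham rats, 8.68, 8.64 and 9.01 in the 3-day rats and 8.80, 8.71 and 9.06 in the 10-day rats. Every rat after PPVL lay above every sham rat, and the 3-day and 10-day rats overlapped. The difference was 0.52 ± 0.14 at 3 days (1.44-fold, unadjusted p = 0.00353, interval 0.22 to 0.83) and 0.60 ± 0.14 at 10 days (1.52-fold, unadjusted p = 0.00143, interval 0.30 to 0.91). Neither passed over the genes tested, with adjusted p = 0.0828 and adjusted p = 0.0713 in limma. With array weights, which give less weight to arrays that deviate more, both passed (adjusted p = 0.0389 and 0.0434). Between 10 and 3 days the difference was 0.08 ± 0.14 (adjusted p = 0.850, interval -0.23 to 0.39). Both comparisons with sham use the same 3 sham arrays, so they are not independent of each other.

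The other probeset of Cnr2 gave signals of 7.20, 6.88 and 7.16 in the sham rats, 7.77, 7.41 and 8.12 in the 3-day rats and 7.73, 7.61 and 8.01 in the 10-day rats. It also put every rat after PPVL above every sham rat. In a fit of 25679 probesets its differences were 0.69 ± 0.19 at 3 days (adjusted p = 0.168) and 0.71 ± 0.19 at 10 days (adjusted p = 0.161). The 2 probesets ranked the sham rats differently, with sham rat 2 lowest in the one and sham rat 3 lowest in the other.

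Markers of B cells, which are known to express Cnr2, were higher on the same arrays. The mean log2 signal of the 10 measured B cell markers, of 12 listed, was 7.87, 7.97 and 7.97 in the sham rats, 8.32, 8.06 and 8.59 in the 3-day rats and 8.36, 8.27 and 8.62 in the 10-day rats. Among rats after PPVL, rat 3 of each day had the highest and rat 2 the lowest value of both Cnr2 and the B cell mean, whereas sham rat 1 had the highest Cnr2 and the lowest B cell mean of its group. This order was not particular to B cells. Rat 3 of each day was also highest in the means of the macrophage, hepatocyte, dendritic cell and platelet markers. Rat 2 of each day was lowest in that of the platelet markers as well. Of the 10 markers Vpreb3 (0.83, adjusted p = 0.0285) and Cr2 (0.75, adjusted p = 0.0213) rose at 3 days, where 2.15% of all genes rose. On that day 8 of the 10 lay above sham, and Fcrla (-0.07), the brightest of them, and Spib (-0.03) lay slightly below. None passed at 10 days, where all 10 lay above sham and 8 had an unadjusted p under 0.05 with limma (16.2% of all genes). The mean of the 13 macrophage markers was also higher, at 6.02 to 6.10 in sham, 6.27 to 6.86 at 3 days and 6.31 to 6.39 at 10 days, and none of them passed the test on either day (8 and 4 at an unadjusted p under 0.05 with limma, beside 15.5% and 16.2% of all genes). The part of either cell type in the Cnr2 signal was not tested. In such bulk samples more cells of a type and more RNA per cell cannot be told apart.

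The genes whose pattern over the 9 arrays was most like that of Cnr2 were Fcrl1 (Pearson r = 0.991), Nadk2 (r = 0.984) and Kiaa1549 (r = 0.966), as a description of the same arrays. Fcrl1 is a receptor-like gene known from B cells. Its signal was 7.79, 7.60 and 7.44 in the sham rats, 8.06, 8.10 and 8.42 in the 3-day rats and 8.27, 8.12 and 8.56 in the 10-day rats. Fcrl1 was picked for its likeness to the higher Cnr2 probeset on these arrays. That it ranks the sham rats in the same order largely follows from this choice and adds no separate evidence.

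**Figure D2:**
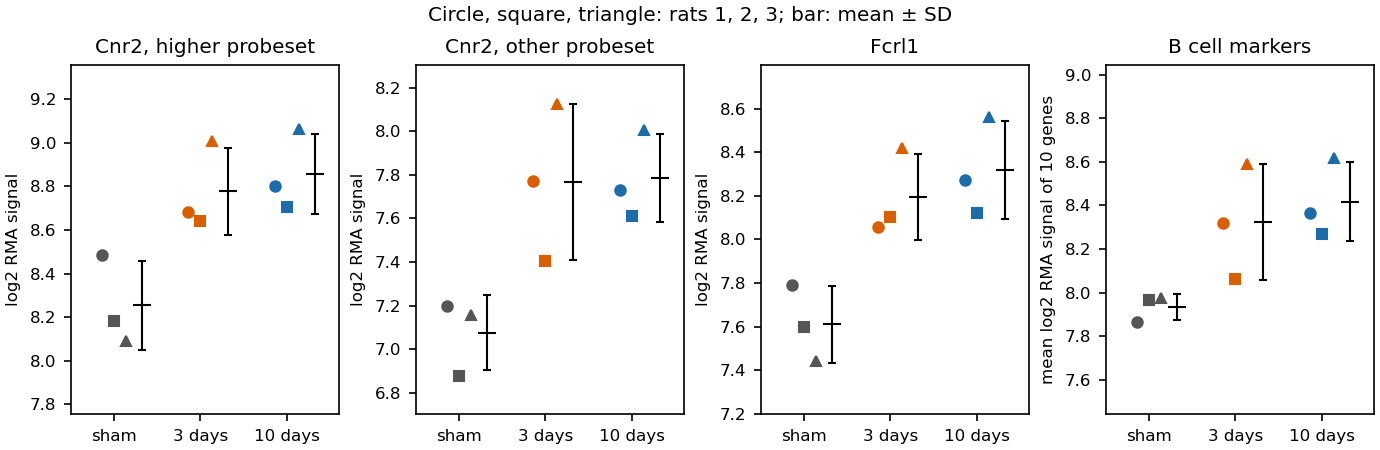
Log2 RMA signal of both Cnr2 probesets and of Fcrl1, and the mean log2 RMA signal of 10 B cell markers, on the 9 arrays by group, with bars for mean ± SD (n = 3). In each panel all 6 arrays after PPVL lie above the 3 sham arrays, and rat 3 (triangle) is the highest of either PPVL group. Both traits also hold for the mean of the 13 macrophage markers, which has no panel here. Fcrl1 was picked for its likeness to the higher Cnr2 probeset on these arrays.

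Calcrl, which encodes the receptor protein shared by adrenomedullin and calcitonin gene-related peptide (CGRP), was lower on both days. Its signal was 9.21, 8.95 and 9.18 in the sham rats, 8.50, 9.01 and 8.67 in the 3-day rats and 8.83, 8.63 and 8.87 in the 10-day rats. The 10-day rats all lay below the sham rats, and at 3 days rat 2 overlapped with sham. The difference was -0.38 ± 0.13 at 3 days (0.767-fold, unadjusted p = 0.0157, adjusted p = 0.177, interval -0.67 to -0.09). At 10 days it was -0.33 ± 0.13 (0.793-fold, unadjusted p = 0.0291, adjusted p = 0.243, interval -0.63 to -0.04). Between the days it was 0.05 ± 0.13 (adjusted p = 0.915). The limma test called neither difference from sham.

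Calcrl is known from endothelial cells, and the mean of 11 measured endothelial markers was 5.69 to 5.86 in sham, 5.77 to 5.84 at 3 days and 5.65 to 5.82 at 10 days, with none of the 11 called and 1 on each day at an unadjusted p under 0.05. Lists that were lower on the same arrays were those of T and natural killer cells (9.64 to 9.80 in sham, 9.42 to 9.58 at 3 days and 9.28 to 9.41 at 10 days) and of dendritic cells (7.84 to 7.86, 7.47 to 7.58 and 7.65 to 7.74). Of 13 T and natural killer cell genes Cd5 fell at 10 days (-0.58, adjusted p = 0.0449), where 0.243% of all genes fell. On that day 0 of the 13 lay above sham, and 10 had an unadjusted p under 0.05 with limma (16.2% of all genes). At 3 days 2 lay above sham and 5 had such a p (15.5% of all genes). Of 7 dendritic cell genes 3 fell at 3 days, where 0.714% of all genes fell, namely Irf8 (-0.38), Flt3 (-1.12) and Clec9a (-0.67). Batf3 alone of these 7 lay above sham at 3 days (0.30, adjusted p = 0.240 with limma). Whether these cells had a part in the Calcrl signal was not tested. The genes most like Calcrl over the 9 arrays were Cnnm1 (Pearson r = 0.947), Sos1 (r = 0.939) and Ccdc107 (r = 0.935). For Edn1 they were Dgat1 (r = 0.925), Myo18a (r = 0.893) and Spred1 (r = 0.890).

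The receptors Agtr1a and Cnr1 stayed at the dim end of the array. The Agtr1a signal was 4.31, 4.13 and 3.86 in the sham rats, 3.92, 4.13 and 4.13 in the 3-day rats and 4.22, 4.27 and 4.13 in the 10-day rats. The same value was deposited for 4 of the 9 arrays. Agtr1a has a close copy, Agtr1b, and which of them the probes bind is not given in the sources used here. Cnr1 signals were 4.14, 4.14 and 3.94 in the sham rats, 4.13, 4.04 and 3.97 in the 3-day rats and 4.005, 4.010 and 4.185 in the 10-day rats. The groups overlapped for both genes. Fitted without the filter, their differences from sham lay between -0.04 and 0.11 with adjusted p from 0.745 to 0.986. A change of a transcript near the dim end could not be seen here.

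**Figure D3:**
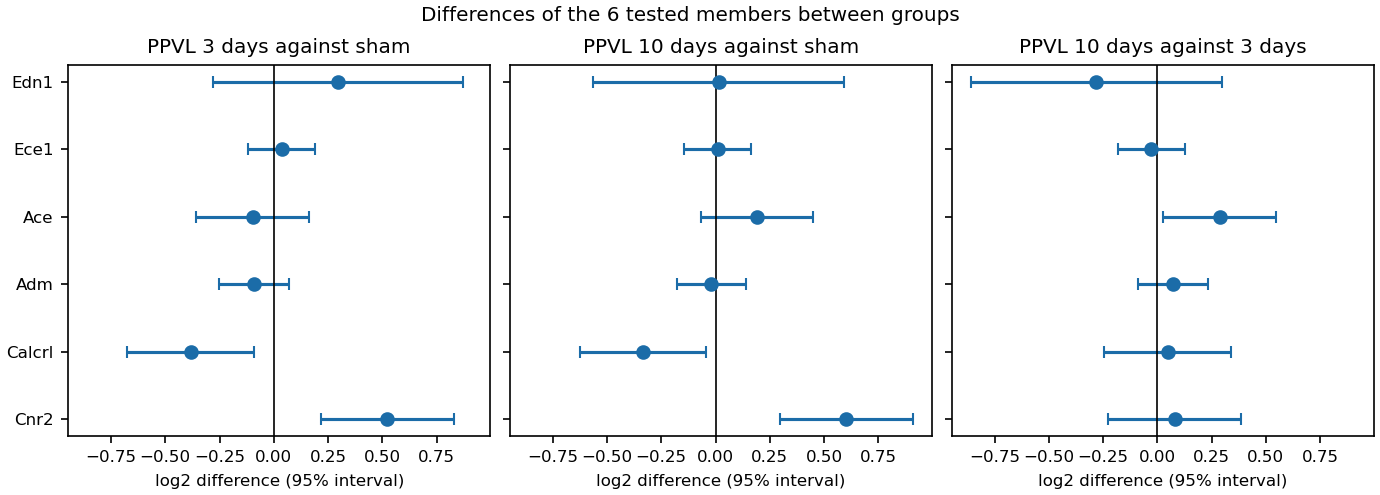
Log2 differences (horizontal axes) of the 6 tested members for PPVL 3 days against sham, PPVL 10 days against sham and 10 days against 3 days, as points with 95% intervals from limma. The intervals of Cnr2 and Calcrl leave out 0 in both comparisons with sham, in opposite directions, and that of Edn1 is the widest.

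Counted together, 0 of the 6 tested members passed at 3 days, where 2.86% of all 14014 genes did, and 0 of 6 at 10 days, where 0.735% did. Between the days 0 of 6 passed, against 0.0714% of all genes, and in the F test over the 3 groups 0 of 6, against 2.35%. At an unadjusted p under 0.05 with limma there were 2 members on each day against sham, Cnr2 and Calcrl, and 1 between the days, Ace, beside 15.5%, 16.2% and 11.3% of all genes. No test of these counts against all genes was made. Groups did not overlap for 1 of 6 members at 3 days (18.8% of all genes), for 3 of 6 at 10 days (21% of all genes) and for 1 of 6 between the days (14.6%). The median difference of the 6 was -0.03 at 3 days and 0.01 at 10 days, beside -0.01 and -0.0004 over all genes tested.

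Around the members, 50 other genes of the same systems were listed, of which 44 had a probeset of their own and 38 were tested. At 3 days 2 of these 38 rose, where 2.15% of all genes rose, and 1 fell, where 0.714% of all genes fell. At 10 days 2 rose, where 0.492% of all genes did, and 0 fell, where 0.243% did. On each day limma gave 8 of the 38 an unadjusted p under 0.05, counting both directions, beside 15.5% of all genes at 3 days and 16.2% at 10 days. Between the days none passed, with 3 at an unadjusted p under 0.05 (11.3% of all genes). The median difference of the 38 was -0.02 at 3 days and 0.07 at 10 days. The genes that passed belong to the cannabinoid and angiotensin lists.

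Daglb, whose enzyme makes the endocannabinoid 2-arachidonoylglycerol and is known as such from mouse macrophages, rose on both days. Its signal was 7.50, 7.62 and 7.50 in the sham rats, 8.17, 8.23 and 8.01 in the 3-day rats and 8.12, 8.22 and 8.12 in the 10-day rats, so that all rats after PPVL lay above all sham rats. The rise was 0.60 ± 0.07 at 3 days (adjusted p = 0.00392) and 0.61 ± 0.07 at 10 days (adjusted p = 0.0400). Leaving out any 1 array kept the 3-day call (adjusted p at most 0.0196). The 10-day call was lost when any 1 sham or 10-day array was left out (adjusted p 0.0535 to 0.143).

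Gpr55, an orphan receptor that has been proposed to bind cannabinoid ligands and lysophosphatidylinositol, fell at 3 days. Its signal was 6.52, 6.89 and 6.90 in the sham rats, 6.03, 6.32 and 6.21 in the 3-day rats and 6.26, 6.12 and 6.45 in the 10-day rats. Both PPVL groups lay below sham without overlap. The difference was -0.59 ± 0.13 at 3 days (adjusted p = 0.0420) and -0.49 ± 0.13 at 10 days (adjusted p = 0.0998). The 3-day call was kept without sham rat 1 (adjusted p = 0.0199) and lost without any other single array (0.0511 to 0.134). Naaa, a lysosomal enzyme that breaks down fatty acid ethanolamides, was higher at 10 days by 0.73 ± 0.15 without passing (adjusted p = 0.0608), from 8.56 to 8.73 in sham to 9.04 to 9.71. Of the 13 tested genes of this list 1 rose and 1 fell at 3 days and 1 rose at 10 days, and the median differences were -0.0008 and 0.03. Between the days Naaa differed by 0.24 ± 0.15 and Gpr119 by 0.12 ± 0.08 (adjusted p = 0.572 and 0.581).

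In the angiotensin list Anpep, an aminopeptidase of myeloid cells (CD13) that also trims angiotensin peptides, rose on both days as the only called gene of 13. Its signal was 10.14, 10.18 and 10.18 in the sham rats, 11.07, 11.12 and 10.77 in the 3-day rats and 10.68, 10.70 and 10.69 in the 10-day rats, with no overlap between any 2 groups. The rise was 0.82 ± 0.09 at 3 days (1.77-fold, adjusted p = 0.00245) and 0.53 ± 0.09 at 10 days (1.44-fold, adjusted p = 0.0449). Leaving out any 1 array kept the 3-day call (adjusted p at most 0.0139), and the 10-day call was lost without any 1 sham or 10-day array (0.0810 to 0.150). Between the days the difference was -0.30 ± 0.09 (adjusted p = 0.282). Anpep is also known from human neutrophils, whose marker mean was 6.81, 7.72 and 7.74 in the sham rats, 8.05, 8.14 and 7.59 in the 3-day rats and 7.67, 7.59 and 7.20 in the 10-day rats. Of the 11 tested neutrophil markers Fcnb and Csf3r rose at 3 days, where 2.15% of all genes rose. On that day 8 of the 11 lay above sham, and Ngp (-0.30), Mmp9 (-0.21) and Mpo (-0.04) lay below. The part of neutrophils in the Anpep signal was not tested. Atp6ap2, the (pro)renin receptor and a proton pump subunit, was higher by 0.29 ± 0.08 and 0.32 ± 0.08 (adjusted p = 0.0761 and 0.0770), and all rats after PPVL lay above sham. Agtr1b differed by 0.31 ± 0.09 between 10 and 3 days (adjusted p = 0.280), at signals of 4.07 to 4.68.

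In the endothelin list, the ligand gene Edn3 was at 5.81 to 5.91 in sham, 5.35 to 5.83 at 3 days and 5.84 to 6.13 at 10 days. Its differences were -0.23 ± 0.13 at 3 days, 0.07 ± 0.13 at 10 days and 0.30 ± 0.13 between the days (adjusted p = 0.431, 0.837 and 0.414). Without 3-day rat 3 those at 3 days and between the days were -0.08 and 0.15, and without 10-day rat 3 that at 10 days was -0.02. Ece2, a second converting enzyme, differed by -0.10 ± 0.07 at 3 days and by 0.09 ± 0.07 between the days, and the ligand gene Edn2 by 0.12 ± 0.07 at 10 days (adjusted p from 0.464 to 0.684). None of the 3 tested genes passed.

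In the adrenomedullin list, Ramp3, a partner protein of the Calcrl receptor, was at 6.70 to 7.27 in sham, 6.38 to 6.79 at 3 days and 6.78 to 6.79 at 10 days. Its difference at 3 days was -0.38 ± 0.14 (unadjusted p = 0.0223, adjusted p = 0.213 with limma), in the same direction as that of Calcrl, and the groups overlapped. At 10 days it was -0.20 ± 0.14 (adjusted p = 0.532 with limma), again with overlap. Ramp2, of the same family, lay below the filter (mean 4.11) and was not tested. Ramp1, the partner that makes the CGRP receptor, differed by 0.17 ± 0.12 between the days (adjusted p = 0.614). The scavenging receptor Ackr3 (0.14 ± 0.09) and Crcp (-0.14 ± 0.06) at 10 days, Calcb (0.10 ± 0.08) at 3 days and Gpr182 (0.14 ± 0.10) between the days did not pass, with adjusted p from 0.328 to 0.639. None of the 9 tested genes of this list passed in any comparison, and 1 had an unadjusted p under 0.05 at 3 days with limma.

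**Figure D4:**
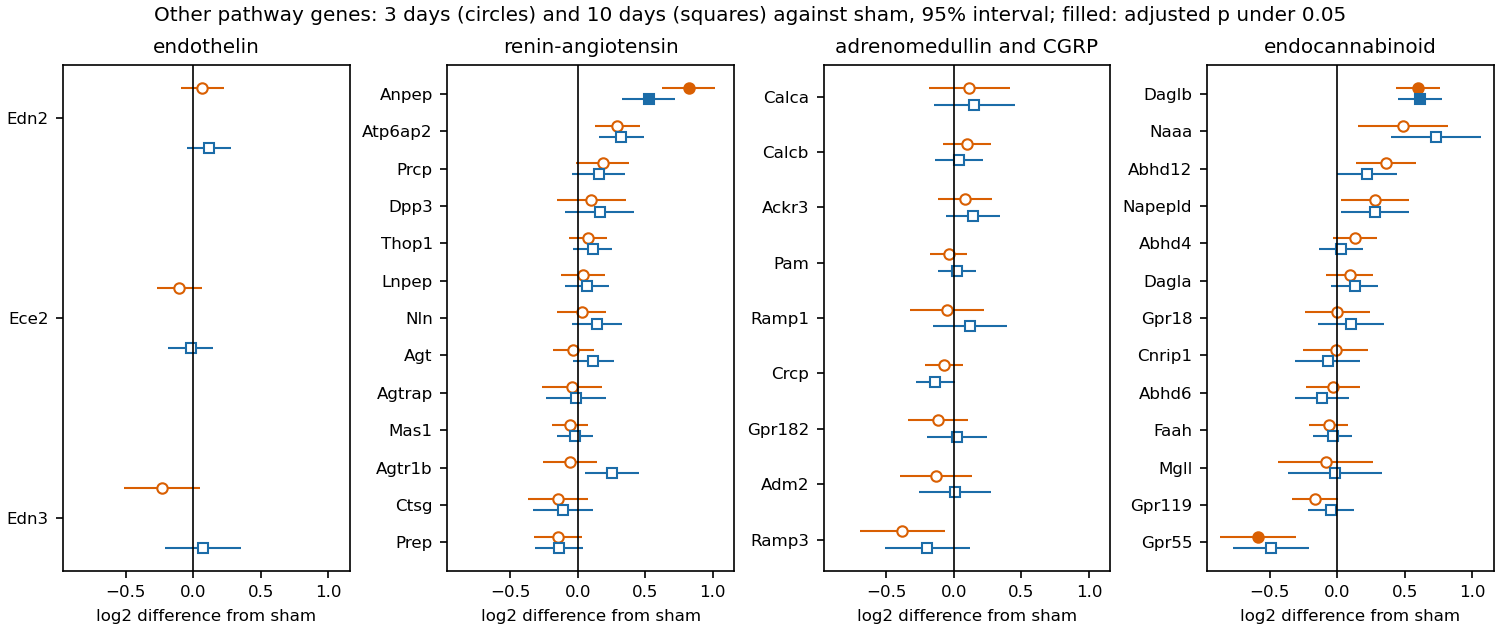
Log2 differences from sham (horizontal axes) of the 38 other tested genes of the endothelin, renin-angiotensin, adrenomedullin and endocannabinoid lists at 3 days (circles) and 10 days (squares), with 95% intervals from limma, filled where the adjusted p is under 0.05. Anpep and Daglb are filled to the right on both days and Gpr55 to the left at 3 days.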

How the data were processed

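Microarray expression was measured in cells given as hepatic macrophages of 9 rats, with the group of each array taken from its title. The deposited values are log2 signals that the authors made with RMA, per the submitters' processing notes, which also name Transcriptome Analysis Console, without versions. The array carries 36685 probesets. Of these, 18511 had 1 symbol in the platform annotation, 575 several and 17599 none. No renormalization was applied, and no value was missing. The genome build behind the array annotation is not given in the sources used here. Each tested gene was modelled over the 9 arrays together (limma 3.58.1, R 4.3.3; 6 residual and 3.59 prior degrees of freedom), 2-sided, without trend or robust moderation. In 3 against 3 rats an exact permutation test cannot go below p = 0.1, so it was not used. The procedure was run on simulated data as a check of the code. The simulated data also held smaller changes. The condition to be met covered the 2-fold changes only, which are larger than those of any member. Marker means are means of log2 signals over the measured genes of a list.

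The members and lists were chosen with earlier results of these data known. Named were all members, per list the genes called, filled up to 2 a comparison by smallest p, called marker genes (up to 3 a list, by signal), and for 3 members the 3 genes most alike over the arrays. The macrophage, Kupffer, T and natural killer cell genes of the cell type check and Ramp2 fall outside this rule. They were named after their values were seen. The same holds for marker genes that did not pass and are given beside called ones. Same-numbered rats did not deviate together (correlations -0.0950 to 0.0837), so numbers were not taken as pairs. Precision is limited by the number of arrays. Settings tried were other filters, probeset rules, normalization, moderation, weights, a replicate block, 2-group fits and leaving out each array.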

Additional observations from a re-analysis of the deposited data

How the results depend on the processing

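No count of members called moved with the filter, the choice of probesets, quantile normalization, an intensity trend, the replicate block (0 members in each comparison), fits of only the groups compared, or leaving out 1 array. With array weights the count was 1, Cnr2, at 3 days, at 10 days and in the F test, and the cause was not tested. The count over all genes ran from 134 to 530 at 3 days (401 as reported) and from 0 to 197 at 10 days (103). It was 264 and 0 with the replicate block, which ended the 10-day calls of Anpep and Daglb (adjusted p = 0.0863 and 0.0780) and no other call of a named pathway gene; same-numbered rats share only a number. Both 10-day calls were lost as well with no filter (adjusted p = 0.0576 and 0.0511) and over all probesets (0.0946 and 0.0740). That of Gpr55 at 3 days was lost in these settings (0.0536 and 0.115) and in the 2-group fit (0.0959). Naaa at 10 days passed with the filter at the 50th percentile, the intensity trend and array weights (0.0461 to 0.0479).

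Some differences that did not pass changed sign, among them that of Edn1 at 3 days (0.30). With array weights, Edn1 and Ece1 at 10 days were -0.073 and -0.0033, and with quantile normalization Ece1 between the days was 0.0074. Without 1 array the ranges at 3 days were -0.027 to 0.58 for Edn1, -0.0052 to 0.11 for Ece1 and -0.20 to 0.027 for Ace. At 10 days they were -0.14 to 0.11 for Edn1, -0.0065 to 0.024 for Ece1, -0.063 to 0.013 for Adm and -0.020 to 0.12 for Edn3. Between the days they were -0.57 to 0.042 for Edn1, -0.098 to 0.014 for Ece1, -0.066 to 0.19 for Calcrl and -0.023 to 0.19 for Cnr2. None of these passed. Cnr2 stayed between 0.41 and 0.72 against sham without 1 array (adjusted p 0.0597 to 0.212), and Calcrl between -0.53 and -0.26 (0.0610 to 0.459). Signals close to the filter, as of Ace, Agtr1a and Cnr1, limit what can be seen.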
